A study of Mus musculus with 6 samples.

Results

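Genes of fibroblast growth factor (FGF) signalling were described in MC3T3-E1 cells, a preosteoblast line (subclone 4) from mouse calvaria that lays down bone-like matrix when differentiated. The 10 genes were chosen by name from 24016 genes in the table and fall into 4 ligands (*Fgf23*, *Fgf2*, *Fgf7* and *Fgf18*), 4 receptors (*Fgfr1*, *Fgfr2*, *Fgfr3* and *Fgfrl1*) and 2 Sprouty genes (*Spry1* and *Spry2*). Wild-type cells were differentiated over 6 days with β-glycerophosphate at 10 mM and ascorbic acid at 50 μg/ml. Corticosterone, the chief glucocorticoid of rodents, was added at 100 nM or replaced by vehicle over the next 24 h, and per the labels calcitriol (10 nM), the active form of vitamin D, was present in both groups. Each group had 3 libraries, described as biological replicates of 1 cell line, and cells without calcitriol were not analysed here. The question was which genes of the pathway changed with corticosterone. All values are normalized counts, that is, reads on a gene divided by 1 scaling factor per library, unless a level per length is named. The libraries held 16020401 to 25638645 reads on genes, and 3 reads corresponded to a normalized count of 2.32 to 3.84.

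Most FGFs are secreted proteins that bind receptor tyrosine kinases together with heparan sulfate, or with Klotho proteins in the case of the endocrine members. The activated receptors signal through adaptor proteins to the RAS-ERK kinase cascade, and Sprouty proteins, whose genes are induced by the same signalling, restrain it. In bone, osteoblasts and osteocytes secrete FGF23, the hormone that makes the kidney excrete phosphate and make less active vitamin D, while FGF receptors in osteoblasts take part in bone formation.

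The promoter windows of the 3 genes whose counts fell most are shown, to give the sequence before the start of the genes the results turn on. Each holds the 250 bases before the transcription start in the RefSeq annotation of GRCm38.p6, written 5′ to 3′ on the strand of the gene. *Fgf23* occupies chr6:127072652-127072901 on the plus strand, *Fgf18* chr11:33147401-33147650 on the minus strand and *Spry1* chr3:37639697-37639946 on the plus strand. Capitals mark the cAMP-response half-site TGACG in *Fgf23* and the GC box GGGCGG, on either strand, in the other 2.
Fgf23: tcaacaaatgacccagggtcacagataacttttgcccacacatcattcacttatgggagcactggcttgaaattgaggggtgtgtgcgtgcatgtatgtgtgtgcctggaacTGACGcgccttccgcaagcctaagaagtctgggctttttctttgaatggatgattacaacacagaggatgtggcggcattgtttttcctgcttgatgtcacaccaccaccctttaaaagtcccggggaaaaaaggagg
Fgf18: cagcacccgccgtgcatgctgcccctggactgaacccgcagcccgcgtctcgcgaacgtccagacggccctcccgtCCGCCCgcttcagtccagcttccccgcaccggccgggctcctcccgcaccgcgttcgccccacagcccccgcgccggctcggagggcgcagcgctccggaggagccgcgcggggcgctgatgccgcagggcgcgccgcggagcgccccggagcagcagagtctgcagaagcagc
Spry1: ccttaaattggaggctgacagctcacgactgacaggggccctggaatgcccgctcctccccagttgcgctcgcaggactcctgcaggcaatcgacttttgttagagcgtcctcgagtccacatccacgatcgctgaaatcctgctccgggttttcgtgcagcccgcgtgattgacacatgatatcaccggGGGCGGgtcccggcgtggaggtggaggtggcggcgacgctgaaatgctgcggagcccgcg

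Windows were found for 9 of the 10 genes, and *Fgfr1* had none in the table. Letters were searched on both strands. The glucocorticoid receptor half-site AGAACA, held by 16.1% of 32851 windows of the same length, did not occur in any of the 10 windows of these genes (*Fgfr3* had 2 windows). The same was true of the AP-1 site TGANTCA, held by 6.75% of windows, and the TATA box TATAAA, held by 12.4%. The half-site TGACG, held by 17.8% of all windows, lay 138 bases before the *Fgf23* start and occurred 2 times in the *Fgf2* window. That *Fgf2* window (37348403 to 37348652) runs past the RefSeq gene start at 37348477. Likewise, 1 *Fgfr3* window (33722056 to 33722305) lies inside the gene, which starts at 33721724 in RefSeq. The nuclear receptor half-site AGGTCA, held by 14.0%, occurred only in the *Fgf7* window among the 9 genes. The GC box, held by 32.7%, occurred in the windows of *Fgf2*, *Fgf18*, *Fgfr3*, *Fgfrl1* and *Spry1*. The *Fgf23* window had a GC content of 48.4%, that of *Spry1* 62.4% and that of *Fgf18* 77.2%, against a median of 52.4% over all windows.

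With corticosterone, 5 of the 10 genes fell (*Fgf23*, *Fgf18*, *Fgfr1*, *Fgfrl1* and *Spry1*), 2 rose (*Fgfr2* and *Fgfr3*) and 3 did not pass the test (*Fgf2*, *Fgf7* and *Spry2*). The test was limma on log2(value + 0.1), with Benjamini-Hochberg adjustment over all 24016 genes and an adjusted *p* under 0.05. Of all genes, 8.49% were called higher and 8.2% lower by this rule. Among the 13880 genes with a mean of at least 10, which left out *Fgf18*, the shares were 14.2% higher and 13.5% lower. Adding a log2 fold change of over 1 left *Fgf23* and *Fgf18* lower and none of the 10 higher, against 1.4% of all genes lower and 1.38% higher. By the rule with the log2 fold change, edgeR and DESeq2 also placed 0 of the 10 higher. At an unadjusted *p* under 0.05, limma had 2 of the 10 higher and 6 lower, beside 3088 higher and 3237 lower of all 24016 genes. The groups did not overlap in 8 of the 10, of which 3 were higher and 5 lower, against 14.7% of all genes higher and 14.9% lower. The median log2 fold change was -0.18 over the 10 genes and -0.01 over all genes.

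**Figure D1:**
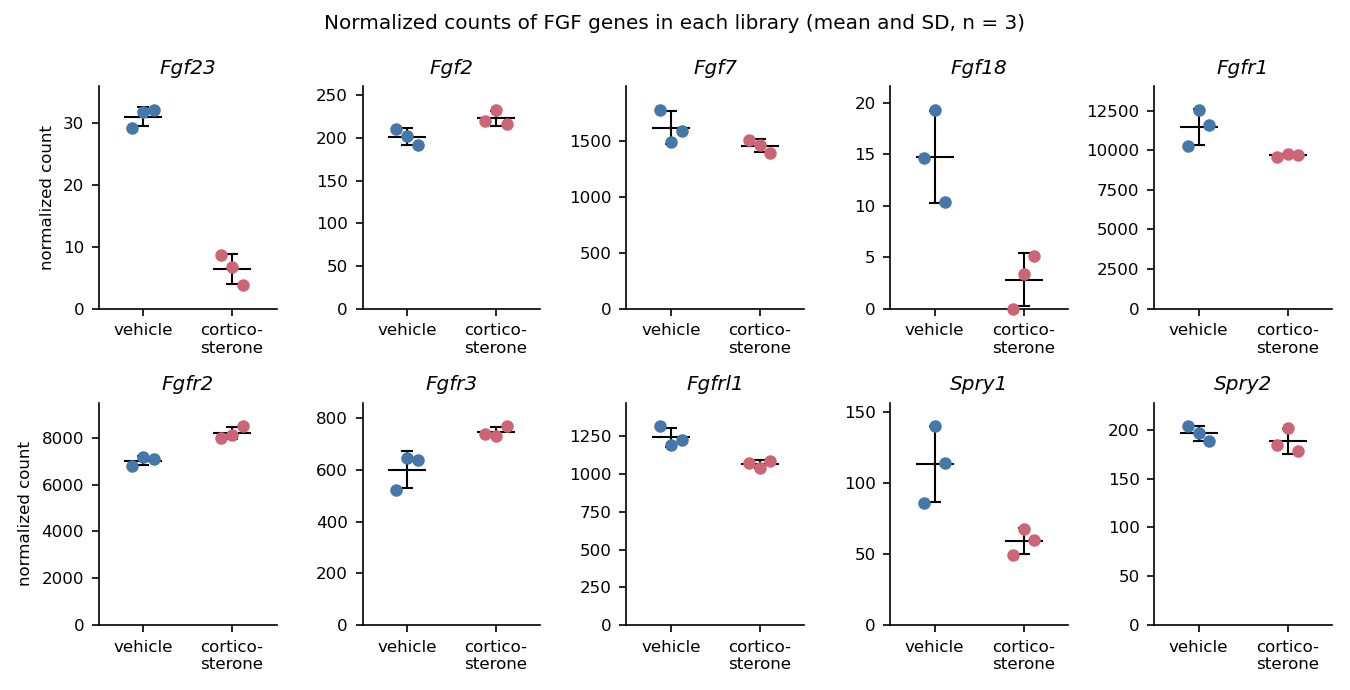
Normalized count (y axis, linear, starting at 0) of each of the 10 genes in the 3 vehicle and 3 corticosterone libraries (x axis), where points are libraries and lines are the mean and SD. Corticosterone libraries lie below every vehicle library for *Fgf23*, *Fgf18*, *Fgfr1*, *Fgfrl1* and *Spry1* and above every one for *Fgf2*, *Fgfr2* and *Fgfr3*.

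Among the ligands, both genes with few reads fell, while neither of the 2 with more reads passed the test. *Fgf23* (ENSMUSG00000000182, chromosome 6, 127072902 to 127081408) had normalized counts of 29.2, 31.6 and 32.1 with vehicle and 8.57, 6.63 and 3.84 with corticosterone. The highest treated library lay far below the lowest vehicle library, and the treated mean was 20.5% of the vehicle mean. The log2 fold change was -2.34 (SE 0.43, limma adjusted *p* = 0.000895). The call rests on 108 reads with vehicle and 17 with corticosterone, which after scaling gave a 4.76-fold lower count with an exact 95% counting interval of 2.84 to 8.48. It held in each of 24 alternative analyses, of which the analysis with no filter equals the main fit, since every gene passed the filter.

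*Fgf18*, a ligand that promotes cartilage and bone growth (ENSMUSG00000057967, chromosome 11, 33117430 to 33147400), had even fewer reads. Its normalized counts were 14.6, 19.3 and 10.3 with vehicle and 0, 3.31 and 5.12 with corticosterone. No treated library reached the lowest vehicle library, and the library with no read allows a normalized count of up to 3.21. The mean fell from 14.7 ± 4.48 to 2.81 ± 2.60 (SD, n = 3). The log2 fold change was -3.57 (SE 1.17, limma adjusted *p* = 0.0469). Because of the library with no read this value depends on the pseudocount, and it was -2.36 with a pseudocount of 1, -4.69 with 0.01 and -2.44 with DESeq2. In total 53 reads stood against 7, a 5.68-fold lower scaled count with an exact 95% counting interval of 2.57 to 14.8. The call was lost when any 1 of the 6 libraries was left out, with limma adjusted *p* from 0.0632 to 0.225, and without corticosterone library 1 the log2 fold change was -1.77.

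*Fgf7*, the growth factor of epithelial cells that stromal cells secrete (ENSMUSG00000027208, chromosome 2, 126034658 to 126091185), had by far the highest level of the 4 ligands. Its normalized counts were 1782, 1495 and 1589 with vehicle and 1514, 1468 and 1397 with corticosterone. The groups overlapped, since vehicle library 2 lay below the first treated library. The log2 fold change of -0.15 (SE 0.06, 95% confidence interval -0.28 to -0.02) did not pass the adjustment (limma adjusted *p* = 0.125).

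*Fgf2*, a ligand that osteoblasts store in their matrix (ENSMUSG00000037225, chromosome 3, 37348346 to 37410108), had normalized counts of 211, 202 and 191 with vehicle. With corticosterone they were 219, 233 and 216. Every treated library lay above every vehicle library, but the log2 fold change of 0.15 (SE 0.09, 95% confidence interval -0.05 to 0.35) did not pass the test (limma adjusted *p* = 0.376). The gene shares 640 bases of exon, or 9.44% of its exon length, with *Nudt6* on the opposite strand. *Nudt6* rose from 17.9 ± 4.43 to 37.1 ± 5.45 (SD, n = 3, log2 fold change 1.07, limma adjusted *p* = 0.0242). Whether the counting used the strand is not given in the sources used here, so reads from the shared stretch cannot be told apart.

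Per exon length, *Fgf7* made up 89.3% ± 1.28 of the summed level of the 4 ligands with vehicle and 92.1% ± 0.499 with corticosterone (SD, n = 3). The share of *Fgf23* went from 3.08% ± 0.374 to 0.710% ± 0.245, that of *Fgf18* from 2.24% ± 0.774 to 0.496% ± 0.464 and that of *Fgf2* from 5.33% ± 0.315 to 6.74% ± 0.278. These shares are of transcripts and say nothing of secreted protein.

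The receptor genes moved by small amounts in opposite directions. *Fgfr1*, the most abundant of the 10 (ENSMUSG00000031565, chromosome 8, 25513654 to 25575718), had normalized counts of 10303, 12568 and 11595 with vehicle and 9575, 9798 and 9709 with corticosterone. All treated libraries were lower, although vehicle library 1 was nearer to them than to vehicle library 2. The mean fell by 15.6%, with a log2 fold change of -0.24 (SE 0.06, limma adjusted *p* = 0.00535).

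*Fgfr2* (ENSMUSG00000030849, chromosome 7, placed by RefSeq from 130162451 to 130266808 on the minus strand) had 6805, 7168 and 7079 with vehicle. With corticosterone it had 8003, 8131 and 8488. The groups were separated by more than their spread, and the mean was 17.0% higher with a log2 fold change of 0.23 (SE 0.04, limma adjusted *p* = 0.000609). GENCODE gives the gene a far longer span because of a transcript that runs into *Ctbp2*. *Ctbp2* itself had a log2 fold change of -0.05 (limma adjusted *p* = 0.728), and 2.69% of the 31-base words of *Fgfr2* transcripts also occur in those of *Ctbp2*.

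*Fgfr3*, a receptor best known as a brake on bone lengthening (ENSMUSG00000054252, chromosome 5, 33721674 to 33737068), had 521, 647 and 637 with vehicle and 738, 733 and 769 with corticosterone. Every treated library was higher. The mean was 24.1% higher, with a log2 fold change of 0.32 (SE 0.08, limma adjusted *p* = 0.00820).

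*Fgfrl1* (ENSMUSG00000008090, chromosome 5, 108692382 to 108706924) encodes a receptor-like protein that binds FGFs but lacks the kinase domain. Its normalized counts were 1316, 1192 and 1223 with vehicle and 1076, 1038 and 1089 with corticosterone. All treated libraries were lower. The mean fell by 14.2%, with a log2 fold change of -0.22 (SE 0.05, limma adjusted *p* = 0.00951).

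The small receptor changes depended on the variance setting. With no variance trend across genes, none of the 4 was called (limma adjusted *p* = 0.115 to 0.246), and leaving out 1 library lost *Fgfr1* in 3 of 6 cases, *Fgfrl1* in 3 and *Fgfr3* in 2, with limma adjusted *p* up to 0.117. *Fgfr2* was called in each of those 6, but quantile normalization lowered its log2 fold change to 0.09 (limma adjusted *p* = 0.130).

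**Figure D2:**
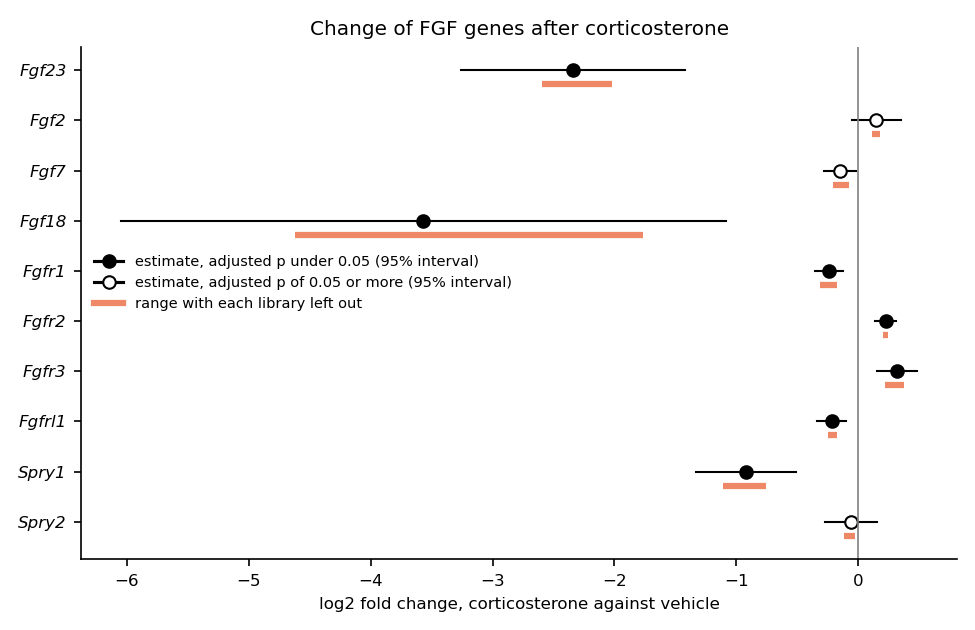
Log2 fold change of each gene, corticosterone minus vehicle (x axis), with its 95% confidence interval from limma as a black line and the range over leaving out each library as an orange bar; filled circles passed an adjusted p of 0.05 and open circles did not. *Fgf18* has the widest interval, from -6.05 to -1.09, and the receptor intervals all lie between -0.36 and 0.48.

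The opposite changes altered the balance of receptor transcripts. Per exon length, *Fgfr1* made up 58.8%, 61.9% and 60.2% of the summed *Fgfr1* to *Fgfr4* level with vehicle and 52.5%, 52.7% and 51.4% with corticosterone. *Fgfr2* made up 37.1%, 33.7% and 35.2% with vehicle and 41.8%, 41.8% and 43.0% with corticosterone. The groups did not overlap for either share. The ratio of *Fgfr2* to *Fgfr1* went from 0.587 ± 0.0432 to 0.810 ± 0.0230 (SD, n = 3), and that of *Fgfr3* to *Fgfr1* from 0.0722 ± 0.00322 to 0.106 ± 0.00300. The smallest two-sided *p* an exact permutation test allows for 3 against 3 is 0.1, so no share can pass 0.05 by that test. The summed receptor level, 97.6 ± 7.10 RPKM (reads per kilobase of exon, scaled to the reads of the library) with vehicle and 92.5 ± 1.40 with corticosterone, overlapped between groups.

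The shares depend on the exon length assigned to each gene. With the length of the longest coding transcript, a choice made after seeing the data, *Fgfr1* went from 56.3% to 48.0% of the *Fgfr1* to *Fgfr3* level and *Fgfr2* from 40.2% to 47.6%. Counts per gene do not resolve the IIIb and IIIc splice forms, which set ligand preference, and *Fgfr4* had at most 2 reads in any library.

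**Figure D3:**
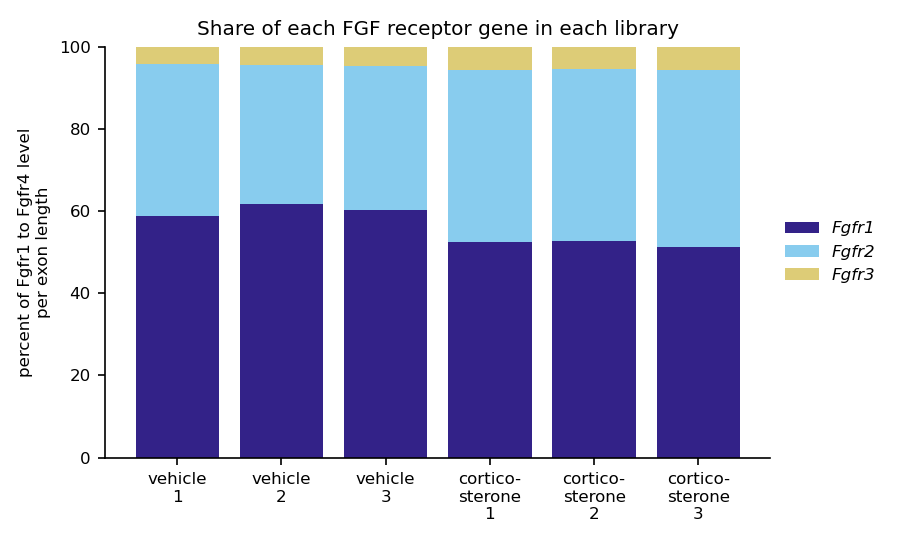
Share of *Fgfr1*, *Fgfr2* and *Fgfr3* in the summed level per exon length of *Fgfr1* to *Fgfr4* (y axis, percent) for each of the 6 libraries (x axis); *Fgfr4*, at most 0.0327%, is too small to see. *Fgfr1* lies between 58.8% and 61.9% in the vehicle bars and between 51.4% and 52.7% in the corticosterone bars.

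The 2 Sprouty genes differed in their values. *Spry1* (ENSMUSG00000037211, chromosome 3, 37639947 to 37644598) had normalized counts of 86.0, 139.7 and 114 with vehicle and 49.2, 67.4 and 60.1 with corticosterone. All treated libraries were lower, with a gap between the lowest vehicle and the highest treated library. The mean was 52.1% of vehicle, with a log2 fold change of -0.92 (SE 0.19, limma adjusted *p* = 0.00254). Without vehicle library 2, the highest, the log2 fold change was -0.76. The call was lost without vehicle library 3 (limma adjusted *p* = 0.0611) and with no variance trend (limma adjusted *p* = 0.102). The antisense gene *Gm42922* overlaps 24.4% of its exon length but had only 0 to 8 reads per library.

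*Spry2* (ENSMUSG00000022114, chromosome 14, 105891947 to 105896819) had 204, 197 and 188 with vehicle and 184, 202 and 178 with corticosterone. The groups overlapped. The log2 fold change was -0.06 (SE 0.10, 95% confidence interval -0.28 to 0.15, limma adjusted *p* = 0.758). The ratio of *Spry1* to *Spry2* per exon length was 0.416 ± 0.104 with vehicle and 0.225 ± 0.0284 with corticosterone (SD, n = 3), and its groups did not overlap. The difference between the 2 log2 fold changes was not tested.

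Compared per exon length, the 10 genes spanned a wide range. With vehicle, *Fgfr1* had 58.9 RPKM, *Fgfr2* 34.4, *Fgf7* 25.3 and *Fgfrl1* 22.6. *Spry2* followed with 4.76, *Fgfr3* with 4.25, *Spry1* with 1.97 and *Fgf2* with 1.504, and the lowest were *Fgf23* with 0.864 and *Fgf18* with 0.629. Neighbours whose libraries overlapped were *Fgf7* and *Fgfrl1*, *Spry1* and *Fgf2*, and *Fgf23* and *Fgf18*. With corticosterone, *Fgfr3* (5.13) stood above *Spry2* (4.43) and *Fgf2* (1.62) above *Spry1* (0.998), and the only neighbours that overlapped were *Fgf23* (0.172) and *Fgf18* (0.116). With the length of the longest coding transcript, *Fgfr3* stood above *Spry2* in both groups.

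**Figure D4:**
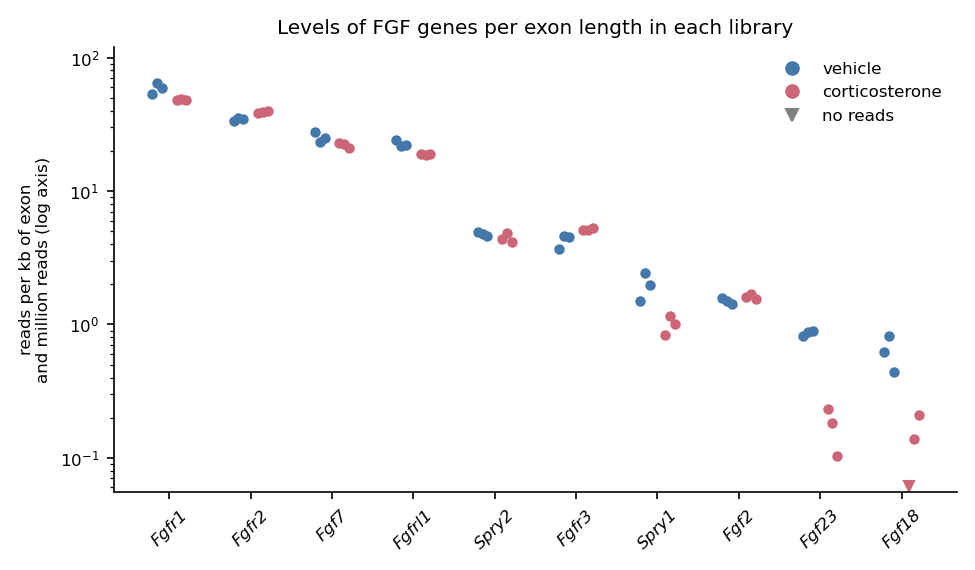
Level of each gene in RPKM (y axis, log scale) in the 3 vehicle and 3 corticosterone libraries; the triangle marks the library with no *Fgf18* read, placed at the foot of the axis. *Fgfr1* is highest, at 58.9 with vehicle and 48.3 with corticosterone, and *Fgf23* and *Fgf18* lie below 1 in every library.

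Markers of the cells were read beside these changes. Of 9 osteoblast markers, 8 were called lower and 1 (*Spp1*) higher. Of all genes with a mean of at least 10, 13.5% were called lower and 14.2% higher. Past the log2 threshold, 4 of the 9 were lower and 0 higher, against 1.4% of all genes lower and 1.38% higher. Mean RPKM went from 13.4 to 5.84 for *Runx2*, 9.91 to 3.79 for *Sp7*, 19.0 to 5.06 for *Bglap* and 17.8 to 7.61 for *Ibsp*. The summed level, mostly *Col1a1*, *Spp1*, *Col1a2* and *Sparc*, was 12509 to 12918 with vehicle and 11353 to 11707 with corticosterone (RPKM). The 4 osteocyte markers tested summed to 36.5 to 39.3 with vehicle and 32.5 to 33.7 with corticosterone, where *Pdpn* was the 1 marker called lower (26.9 to 21.9), *Dmp1* and *Phex* were not called and *Mepe* had no more than 2 reads. Of 4 chondrocyte markers 3 were tested (35.9 to 38.9 with vehicle, 30.4 to 31.9 with corticosterone), of which *Col2a1* and *Sox9* were called lower and *Col10a1* higher (0.937 to 1.51). Of 4 adipocyte markers 2 were tested, with 0.0869 to 0.238 and 1.20 to 1.45, mostly *Fabp4*, while *Plin1* had at most 2 reads. Of these 2, 1 was called higher, also past the log2 threshold, and *Fabp4* went from 0.167 to 1.32. The part of these shifts in the falls of *Fgf23*, *Fgf18* and *Spry1* was not tested. In bulk RNA, fewer cells of a type and less RNA per cell cannot be told apart. Blood and myeloid markers (2 of 4 tested) summed to 1.35 to 1.55 and 1.22 to 1.40, and endothelial (1 of 3) and epithelial markers (2 of 3) stayed below 0.2 in every library.

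Other genes of the pathway were read from 7 lists of 103 genes, of which 89 were tested. The remaining 14, such as the Klotho gene *Kl* and *Galnt3*, were not among the 24016 genes with values. In all, 14 rose and 24 fell. Of all genes, 8.49% were called higher and 8.2% lower, and of those with a mean of at least 10, 14.2% and 13.5%. The ERK phosphatases *Dusp4* (log2 fold change -1.005) and *Dusp5* (0.90) were listed apart from the other feedback inhibitors. The lists were written with earlier results of these data known. The other feedback inhibitors, which act at points from the receptor to ERK, showed 4 lower, 0 higher and 3 not called of 7. Their median log2 fold change was -0.37. limma gave 0 higher at an unadjusted *p* under 0.05, and so did edgeR and DESeq2 at an adjusted *p* under 0.05. *Spry4*, another Sprouty gene, had 55.1, 101.9 and 65.2 with vehicle and 24.6, 34.2 and 37.1 with corticosterone (log2 fold change -1.18, SE 0.26, limma adjusted *p* = 0.00353). *Il17rd*, a membrane inhibitor of FGF receptors also called *Sef*, fell from 713 ± 36.0 to 393 ± 8.67 (log2 fold change -0.86, limma adjusted *p* = 7.88e-08). *Dusp6*, the phosphatase of ERK, fell by 0.41 and *Spred1*, an inhibitor of RAF activation, by 0.37 on the log2 scale. *Spred2* (-0.10), *Spred3* (-0.09) and *Spry3*, with at most 3 reads, did not pass.

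Vehicle library 2 was the highest of its group in 6 of these 7 genes, against 36.2% of the 13880 genes with a mean of at least 10. Without it, 4 of the 7 were called lower. Of the 10 genes known to follow FGF-ERK signalling, 5 fell and 3 rose, with a median of -0.24. The shares among genes with a mean of at least 10 were 13.5% lower and 14.2% higher. *Dusp4*, a nuclear phosphatase of ERK, fell from 86.0 ± 13.9 to 42.5 ± 2.09 (log2 fold change -1.005, limma adjusted *p* = 0.00100). The immediate-early gene *Egr1* fell by 0.90 on the log2 scale, and the ETS factors *Etv5*, *Etv1* and *Etv4* by 0.76, 0.47 and 0.36. *Dusp5*, another nuclear ERK phosphatase, rose from 1151 ± 13.3 to 2152 ± 57.5 (log2 fold change 0.90, limma adjusted *p* = 7.73e-10), and *Myc* (0.50) and *Fosl1* (0.23) rose too. Vehicle library 2 was highest in 6 of these 10, and without it 4 fell and 3 rose. Many signals besides FGF also change these genes.

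Of the 22 adaptors and kinases between receptor and ERK, 2 were higher, 3 lower and 17 not called, with a median of -0.03. Over all genes the shares were 8.49% higher and 8.2% lower. Among genes with a mean of at least 10 they were 14.2% and 13.5%, and the counts lie near these shares. *Plcg1*, the phospholipase that docks on the receptors, rose by a log2 fold change of 0.49 and the adaptor *Shc1* by 0.35. The adaptor *Grb2* fell by 0.23, the exchange factor *Sos1* by 0.17 and the kinase gene *Mapk3*, which encodes ERK1, by 0.15 on the log2 scale.

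Heparan sulfate proteoglycans, which hold FGFs at the cell surface, moved in both directions. In the list of other receptors, co-receptors and binding proteins, 4 of 16 rose and 6 fell, with a median of -0.60. Of all genes, 8.49% were called higher and 8.2% lower, and of those with a mean of at least 10, 14.2% and 13.5%. *Flrt1*, a membrane partner of FGF receptors, fell from 487 ± 79.9 to 171 ± 8.56 (log2 fold change -1.496, limma adjusted *p* = 3.80e-08), and *Flrt2* fell by 0.60 on the log2 scale. Of the syndecans, *Sdc2* and *Sdc3* fell by 0.84 and 0.91 and *Sdc1* and *Sdc4* rose by 0.59 and 0.49 on that scale. On the log2 scale, of the glypicans, *Gpc1* fell by 0.82, *Gpc4* rose by 0.54 and *Gpc3*, also called lower, had at most 5 reads in any library. The basement membrane proteoglycan *Hspg2* rose by 0.18 on that scale. Of 11 genes of heparan sulfate synthesis and editing, *Glce* (log2 fold change -0.57) and *Hs6st2* (-0.25) fell, *Sulf2* (0.18) rose and 8 were not called, with a median of -0.07.

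None of the 10 other FGF family genes tested was called, and 7 of them had fewer than 10 reads in every library. At an unadjusted *p* under 0.05 limma gave 1 lower and 0 higher. That gene was *Fgf11*, with 40.9 ± 9.35 and 23.3 ± 6.67 (log2 fold change -0.83, limma adjusted *p* = 0.0764). edgeR kept 1 of the 10 for its test and called it lower, and DESeq2 called 0.

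Among 13 genes that govern *Fgf23* expression or processing in bone, 4 rose and 4 fell, with a median of 0.04. Of all genes, 8.49% were called higher and 8.2% lower, and of those with a mean of at least 10, 14.2% and 13.5%. *Vdr*, the vitamin D receptor gene, rose from 1444 ± 131 to 5772 ± 269 (log2 fold change 2.00, limma adjusted *p* = 1.02e-12), and *Pth1r*, the parathyroid hormone receptor gene, fell from 1760 ± 197 to 713 ± 65.6 (-1.30, limma adjusted *p* = 5.19e-09). *Fam20c*, the kinase that marks FGF23 for cleavage, fell by 0.88 and *Furin*, a protease that cleaves it, rose by 0.20 on the log2 scale. *Enpp1* and *Nr4a2* fell by 0.57 and 0.42, and the phosphate transporter gene *Slc20a1* and *Hif1a* rose by 0.44 and 0.23, all on the log2 scale. *Dmp1* (0.05), *Slc20a2* (0.04) and *Pcsk6* (-0.20) were not called, and *Phex* and *Mepe* had fewer than 10 reads.

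**Figure D5:**
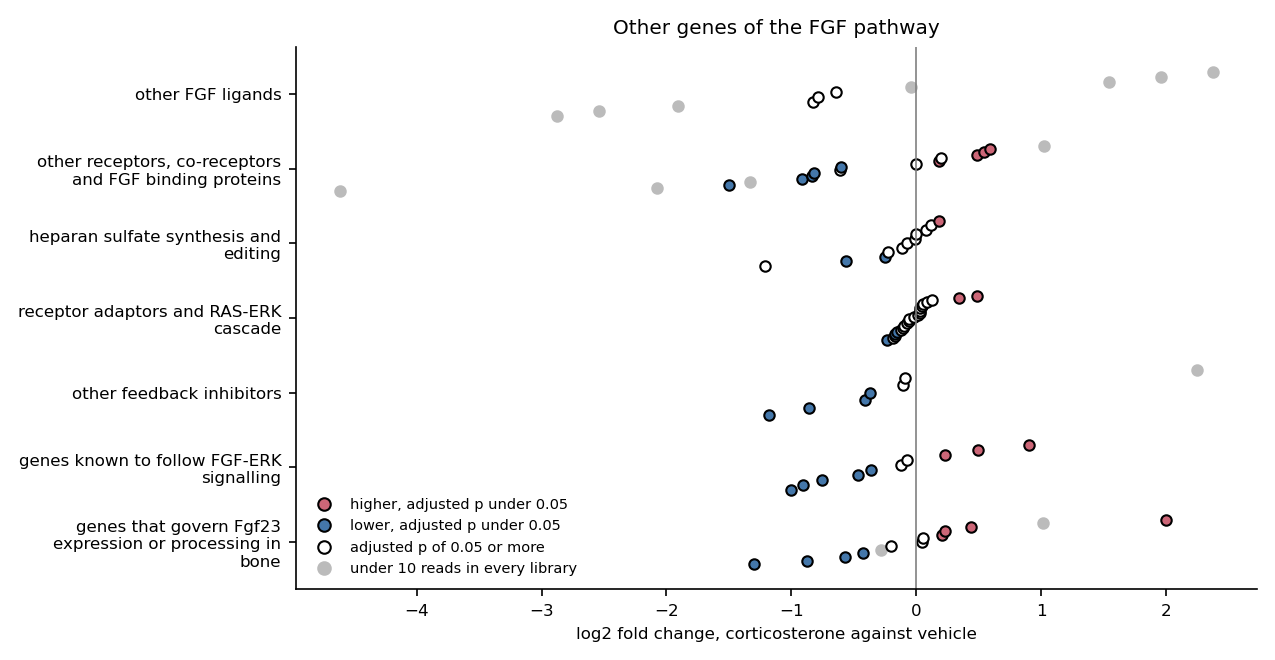
Log2 fold change, corticosterone minus vehicle (x axis), of the genes tested in the 7 pathway lists (y axis, 1 row per list). Red is called higher, blue called lower, white not called and grey under 10 reads in every library, which includes the called *Gpc3*. In the list of other feedback inhibitors, genes with more reads lie at or below -0.09. The proteoglycan and ERK-following lists hold genes on both sides of 0, among them the ERK phosphatase gene *Dusp5* at 0.90.

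The genes whose libraries lay closest to *Fgf23* were sought by the root mean square difference of log2 values over the 6 libraries, each centred on its vehicle mean, among 13879 other genes with a mean of at least 10. They were *Prss35* (0.217), *Gm20655* (0.249), *Dpt* (0.265), *Gper1* (0.274) and *Camsap3* (0.298). *Prss35*, a protease-like gene, had 177 ± 24.4 with vehicle and 34.0 ± 5.33 with corticosterone, and *Dpt*, which encodes the matrix protein dermatopontin, had 32.2 ± 4.08 and 5.61 ± 2.58. *Gper1*, a membrane receptor gene, had 97.6 ± 8.24 and 21.2 ± 3.88. Likeness over 6 libraries of 2 groups is a description of these values.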

How the data were processed

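RNA of 3 vehicle and 3 corticosterone libraries was isolated on columns and prepared with a NEBNext Ultra RNA kit. The submitters' processing notes name mm10, while the aligner, counter and annotation are not given in the sources used here. The authors deposited 1 non-negative signal per gene and library, named FPKM. The values are whole multiples of 1 step per library whatever the gene length, so they are counts divided by 1 size factor (0.782 to 1.30), and 100% of them gave whole reads within 0.01 reads. The exact counting intervals and the floors cover counting error only, while the limma confidence intervals rest on the spread between libraries.

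Log2(value + 0.1) of genes with a mean of at least 0.1 (all 24016) was fitted with limma 3.58.1, using lmFit and eBayes with a variance trend, under R 4.3.3. The design assumed FPKM and was kept. edgeR 4.0.16 (quasi-likelihood, TMM) and DESeq2 1.42.0 were run on the recovered reads as alternatives, beside other pseudocounts, filters, scalings, variance settings, thinning to the shallowest library, the replicate number as a block and leaving out each library. Fits were tested on simulated data. Same-numbered libraries did not deviate together (correlations -0.0438 to 0.0234 over 13880 genes), so numbers were taken not to pair cultures.

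Members and lists were chosen with earlier results of these data known. Genes named are the 10 members, genes that overlap them, genes of the pathway and marker lists, and the 5 genes nearest to *Fgf23*. Exon lengths, coordinates and symbols (24008 of 24016 identifiers) came from GENCODE vM21 and promoters from RefSeq, both of GRCm38. Tables and figures used Python 3.11.15, pandas 2.3.3, scipy 1.17.1 and matplotlib 3.10.9.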

Additional observations from a re-analysis of the deposited data

How the results depend on the processing

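The log2 fold changes of the 10 genes kept their direction in all 237 comparisons with an alternative, and 207 also kept their side of an adjusted *p* of 0.05. Both counts include the fit with no filter, which equals the main fit because every gene passed the filter. With no variance trend, the counts of the 10 genes were 0 higher and 1 lower, and 1 lower past the log2 threshold. The values were then -3.57 for *Fgf18* (limma adjusted *p* = 0.312), -0.24 for *Fgfr1* (0.246), 0.23 for *Fgfr2* (0.115), 0.32 for *Fgfr3* (0.196), -0.22 for *Fgfrl1* (0.160) and -0.92 for *Spry1* (0.102). The pathway lists then held 8 higher and 15 lower genes and all genes 873 higher and 760 lower. Quantile normalization left 1 of the 10 higher, with *Fgfr2* at 0.090.

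Only 1 of the 10 genes was lower past the log2 threshold with a pseudocount of 0.01, a mean of at least 10, edgeR, or thinning, with *Fgf18* at -4.69 with that pseudocount (limma adjusted *p* = 0.155) and at -3.60 after thinning (0.102). *Fgf18* had no value with edgeR or a mean of at least 10. *Fgf7* passed at -0.15 with a robust prior variance (limma adjusted *p* = 0.0429), at -0.19 with the same total (0.0459) and at -0.20 with scaling without the 10 genes with the most reads (0.0319). It also passed at -0.21 without vehicle library 2 (limma adjusted *p* = 0.0451).

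The replicate block in limma changed no call of the 10 genes. With the replicate block, edgeR called *Fgf7* at -0.15 (adjusted *p* = 0.0309) and placed 1 gene lower past the threshold. DESeq2 with the block put *Fgf18* at -2.66 (adjusted *p* = 0.0574), placed 1 of the 10 lower past the threshold, and called 1254 genes lower, 198 of them past the threshold.

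Leaving out each library gave 1 to 2 of the 10 higher, 1 to 5 lower and 1 to 2 lower past the threshold. The lowest count of 1 lower came without vehicle library 3. The pathway lists gave 2 to 5 lower past the threshold (2 without vehicle library 2), and all genes 1148 to 1611 lower and 204 to 321 past the threshold. Log2 fold changes ranged from -0.21 to -0.079 for *Fgf7*, -4.62 to -1.77 for *Fgf18*, -0.32 to -0.17 for *Fgfr1*, 0.22 to 0.37 for *Fgfr3*, -0.25 to -0.18 for *Fgfrl1* and -1.11 to -0.76 for *Spry1*. The cause of these shifts was not tested. Depth limits *Fgf23* and *Fgf18*, which had 3 to 41 and 0 to 25 reads per library.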
